A study of Mus musculus with 12 samples.

Results

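The 9 genes described here make and load major histocompatibility complex (MHC) class II in the mouse: the class II chains H2-Aa, H2-Ab1 and H2-Eb1, the invariant chain Cd74, the peptide exchange factor genes H2-DMa, H2-DMb1 and H2-DMb2, the protease gene Ctss and the regulator gene Ciita. They were chosen by name and function, with earlier results of these data known, and are 9 of the 56735 genes of the count table. All 9 passed the filter on low counts and were tested with 13724 genes in all.

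Bulk RNA-seq was made from sorted CD206+ sdCAMs, which are the CNS-associated macrophages of leptomeninges and perivascular space, here taken from brains without choroid plexus. Every mouse was Mrc1CreERT2/CreERT2:R26tdT/tdT, so that tamoxifen switched on the red reporter tdTomato (tdT) in cells that used the Mrc1 promoter, Mrc1 being the gene of CD206. At 4 weeks after tamoxifen the mice received oral BLZ945, an inhibitor of the CSF-1 receptor that depletes brain macrophages, at 200 mg/kg daily for 7 days, or vehicle, and cells were collected 8 weeks later. The study's methods place tamoxifen in young adult mice, and the labels give no age. The 3 groups were tdT+ sdCAMs from 4 vehicle mice (vehicle tdT+), tdT+ sdCAMs from 4 BLZ945 mice (BLZ945 tdT+) and tdT- sdCAMs from the same 4 BLZ945 mice (BLZ945 tdT-), and each treatment has mice labelled F1, F2, M1 and M2. The vehicle mice are other animals than the BLZ945 mice with the same label. Labelling marks cells by their past use of the Mrc1 promoter, so a tdT- cell is either descended from an unlabelled source or escaped recombination. None of the 12 libraries analysed here holds tdT- cells of vehicle mice, and for tdT- cells the treatment and the lack of label therefore cannot be told apart.

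MHC class II presents peptides from the endosomal pathway to CD4+ T cells. Its α and β chains assemble on the invariant chain, which blocks the groove and guides the complex to endosomes, where cathepsin S trims the invariant chain down to the CLIP fragment. H2-DM, a dimer of H2-DMa with an H2-DMb chain, exchanges CLIP for peptide, and the related H2-O dimer restrains H2-DM. The coactivator CIITA does not bind DNA by itself but docks on factors that sit at the X and Y boxes of class II promoters. Border macrophages of the brain carry class II on a subset of cells, whereas resting microglia carry little.

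The X and Y boxes could be looked up in the RefSeq promoter table, which runs from 250 bases before to 50 after a gene's start on GRCm38.p6. The table held 6 of the 9 genes (7 promoters), and H2-Ab1, Cd74 and Ciita were not matched. The X1 box was searched as CC, any base, AG, any 2 bases, AC, any base and GATG, with at most 2 mismatches at its 10 fixed letters, and the Y box as CTGATTGG with at most 1 mismatch, on both strands. An X-Y pair was an X1 box followed on the same strand by a Y box after 10 to 30 bases. Over all 32851 promoters, 22.9% held an X1 box, 24.6% a Y box and 0.301% (99 promoters) an X-Y pair. H2-Eb1, H2-DMb1 and H2-DMb2 held the pair, as did H2-Ob, the β chain gene of H2-O, and H2-Eb2. H2-Aa held a Y box and no X1 box within the allowed mismatches, its closest X1 match on the gene's strand having 4. In this search 1 of the promoters of H2-DMa held a Y box, and Ctss held neither. H2-Oa, the α chain gene of H2-O, held an X1 and a Y box but no pair. The stretches below, each 5′ to 3′ on the gene's strand, are shown because they compare the chain, exchange factor and H2-O promoters directly, and capitals mark the boxes found.
H2-Aa, chr17:34287857-34287919, minus strand: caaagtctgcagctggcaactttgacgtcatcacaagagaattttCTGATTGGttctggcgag
H2-Eb1, chr17:34305762-34305822, plus strand: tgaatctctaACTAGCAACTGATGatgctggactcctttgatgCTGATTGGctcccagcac
H2-DMb1, chr17:34153083-34153144, plus strand: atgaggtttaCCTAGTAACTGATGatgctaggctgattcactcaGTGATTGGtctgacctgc
H2-DMb2, chr17:34145112-34145173, plus strand: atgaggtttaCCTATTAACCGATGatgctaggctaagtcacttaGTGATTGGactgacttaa
H2-Ob, chr17:34238804-34238862, plus strand: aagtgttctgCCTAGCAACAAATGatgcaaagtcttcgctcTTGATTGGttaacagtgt
H2-Oa, chr17:34092288-34092350, plus strand: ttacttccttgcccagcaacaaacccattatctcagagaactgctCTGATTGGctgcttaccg
The stretch of H2-Oa shows its Y box alone. The boxes of H2-Eb1 lay 19 bases apart, with 1 mismatch in X1 and 0 in Y. Those of H2-DMb1 lay 20 bases apart with 0 and 1 mismatches, and those of H2-DMb2 also 20 bases apart with 1 and 1. The pair of H2-Ob had a gap of 17 bases and 1 mismatch in each box. With no mismatch allowed, 0 of all promoters held the pair. A match is a description of letters in this window, and a missing match does not show that a promoter lacks the box.

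Library totals ran from 19969308 to 23395058 counts, and 14230 to 15866 genes had a count. The tdTomato entry was at 0 in all 12 libraries, so the sort label could not be checked from its transcript. All 8 border macrophage markers, Mrc1 among them, had counts in every group. Summed microglia markers (P2ry12, Tmem119, Sall1, Siglech and Gpr34) were 35460 to 46620 normalised counts in vehicle tdT+, 48696 to 55005 in BLZ945 tdT+ and 100596 to 223320 in BLZ945 tdT- libraries. All 5 passed the test as higher in tdT- than in tdT+ cells after BLZ945 and all 8 border macrophage markers as lower (DESeq2). Summed border macrophage markers were 344991 to 395001 in BLZ945 tdT+ and 190090 to 244024 in BLZ945 tdT- libraries. In the tdT- library of mouse F2 the summed neutrophil markers were 422981, against at most 69.4 in the vehicle and 56.2 in the BLZ945 tdT+ libraries. The tdT- library of mouse M1 had the highest microglia sum. In bulk samples, fewer cells of a type and less RNA per cell cannot be told apart.

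Markers of other class II bearing cells were checked as whole lists. Summed dendritic cell markers overlapped, at 3126 to 6806 in vehicle tdT+, 1418 to 3896 in BLZ945 tdT+ and 2488 to 7356 in BLZ945 tdT- libraries, with 10 of 10 genes holding a count in tdT- and 6 of 10 in BLZ945 tdT+ libraries. Cd209a made up 5954 of the highest vehicle sum and 754 of the lowest tdT- sum. DESeq2 passed Ccr7 and Dpp4 as higher in tdT- than in tdT+ cells after BLZ945 (shrunken log2 fold changes 0.02 and 0.03, edgeR padj = 0.155 and 0.154) and Zbtb46 as lower (-1.43, edgeR padj = 0.0364). Batf3 and Itgax did not pass, but all tdT- libraries lay above all BLZ945 tdT+ libraries, with Batf3 at 308 to 475 against 87.0 to 237 and Itgax at 114 to 1166 against 0 to 42.3 normalised counts.

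Summed B cell markers did not overlap, at 5371 to 6480 in BLZ945 tdT+ and 9737 to 12145 in BLZ945 tdT- libraries, with 7611 to 11025 in vehicle tdT+. Ighm, which makes up most of that sum, passed as higher in tdT- cells by 0.86 on the log2 scale (DESeq2 padj = 2.22e-09, edgeR padj = 0.00224) and Cd79b by 1.16 (DESeq2 padj = 0.000426, edgeR padj = 0.0218). Pax5 and Blk were at 0 in all 12 libraries. Summed monocyte markers were 1549 to 3963 in vehicle tdT+, 931 to 2111 in BLZ945 tdT+ and 3078 to 51632 in BLZ945 tdT- libraries. The 51632 was that of tdT- F2, the library with the neutrophil markers, and tdT- F1, M1 and M2 were at 6817, 5653 and 3078. Among these markers Ccr2 passed as higher in tdT- than in BLZ945 tdT+ cells under all 23 alternatives, at 1.75 to 2.68 on the log2 scale. Plasmacytoid dendritic cell markers summed to 3969 to 5536 in BLZ945 tdT+ and 3088 to 4503 in tdT- libraries. The part of these cell types and of microglial transcripts in the class II results was not tested.

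After BLZ945, 8 of the 9 genes were higher in tdT- than in tdT+ sdCAMs, each with a padj of at most 0.05 in the DESeq2 Wald test over all genes tested, and 7 of them also had a shrunken log2 fold change of at least 1 (called DEGs here). Of the 13369 genes with a padj, 2.94% passed as higher, 1.22% as DEGs and 3.61% as lower. For 8 of the 9 genes each of the 4 tdT- libraries was above all 4 tdT+ libraries, against 4.56% of all 13724 genes tested. Ciita was the exception in each of these counts. The fit without the tdT- libraries of F2 and M1, a choice made after seeing the data, also gave 8 passed and 7 DEGs. Class II chains and Cd74 together took 1.70% ± 0.302 of all counts in vehicle tdT+, 1.84% ± 0.441 in BLZ945 tdT+ and 4.71% ± 1.04 in BLZ945 tdT- libraries (SD, n = 4 each). The lowest tdT- share, 3.20%, lay above the highest tdT+ share after BLZ945, 2.41%.

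**Figure D1:**
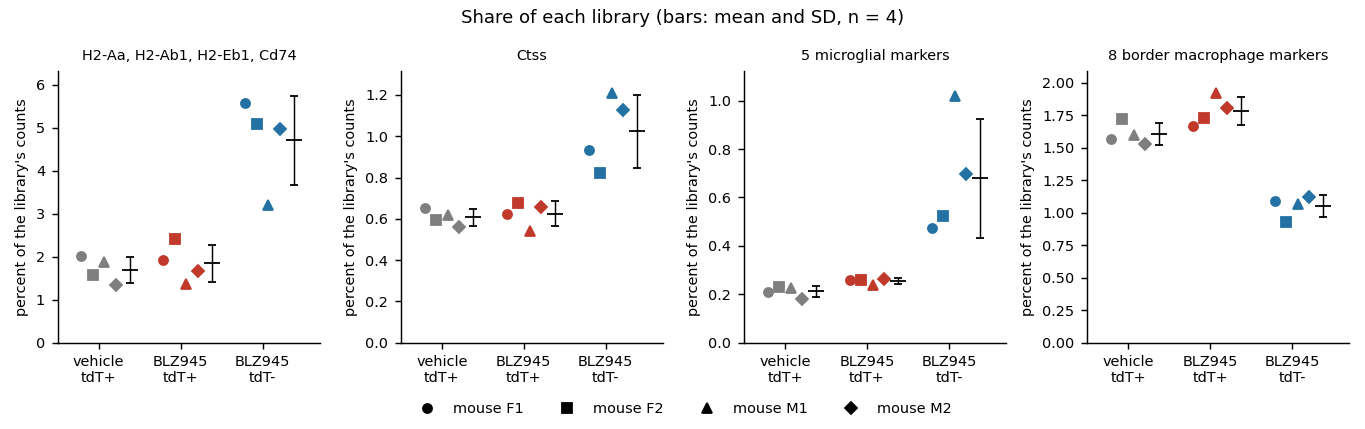
Percentage of each library's counts taken by the chains with Cd74, by Ctss, by 5 microglia markers and by 8 border macrophage markers, with libraries as points by group and mouse label and bars for the mean and SD (n = 4). The BLZ945 tdT- libraries are highest in the first 3 panels, with the chains and Cd74 at 3.20 to 5.59%, and lowest in the fourth.

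H2-Ab1, the β chain of the I-A molecule, lies on chromosome 17 (34476663 to 34488393 on GRCm39, plus strand). Its normalised counts in mice F1, F2, M1 and M2 were 80286, 61427, 70981 and 49078 in vehicle tdT+ sdCAMs, 74510, 99713, 53093 and 65976 in BLZ945 tdT+ sdCAMs and 227555, 204964, 147597 and 224301 in BLZ945 tdT- sdCAMs. All 4 tdT- libraries stood above the 8 tdT+ libraries, whose ranges overlapped each other. The means were 65443 ± 13353, 73323 ± 19673 and 201104 ± 37039 (SD, n = 4 each). Between the BLZ945 populations the log2 fold change was 1.41 ± 0.19 (SE), or 2.66-fold (DESeq2 padj = 1.16e-12, edgeR padj = 0.00167).

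H2-Aa, the α chain of I-A, lies on the minus strand of chromosome 17 at 34501718 to 34506797. Its normalised counts were 57159, 44994, 52732 and 39482 in vehicle tdT+, 55136, 67822, 40161 and 49853 in BLZ945 tdT+ and 160395, 147126, 93254 and 141718 in BLZ945 tdT- libraries. The lowest tdT- library was that of M1, and it still exceeded the highest tdT+ library. The log2 fold change after BLZ945 was 1.31 ± 0.18 (SE), a 2.47-fold difference (DESeq2 padj = 2.6e-12, edgeR padj = 0.00167).

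H2-Eb1, the β chain of I-E, lies at 34524841 to 34535648 on chromosome 17. It had normalised counts of 44289, 36871, 47306 and 29496 in vehicle tdT+, 47195, 58899, 30618 and 38525 in BLZ945 tdT+ and 146874, 127093, 81444 and 123556 in BLZ945 tdT- libraries. Here too the groups were apart in the tdT- comparison and overlapped between the tdT+ groups. The log2 fold change was 1.37 ± 0.25 (SE), or 2.59-fold (DESeq2 padj = 2.24e-07, edgeR padj = 0.00279). H2-Ea, the I-E α chain gene, had 0 counts in all 12 libraries, which allows a share of up to 1.5e-05% of a library (3 counts, counting error only). A transcript of the I-E partner chain was not detectable at this depth, so the H2-Eb1 counts do not measure an I-E dimer.

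Cd74 on chromosome 18 (60936920 to 60945724) encodes the invariant chain that chaperones class II. It reached 228453, 174532, 210768 and 147968 normalised counts in vehicle tdT+, 221423, 280908, 155567 and 197262 in BLZ945 tdT+ and 646632, 562991, 378371 and 590428 in BLZ945 tdT- libraries. By count it ranked 2nd, 2nd, 4th and 2nd of all genes in the tdT- libraries and between 5th and 11th in the vehicle libraries. The difference after BLZ945 was 1.30 ± 0.19 on the log2 scale (SE), or 2.47-fold (DESeq2 padj = 3.51e-11, edgeR padj = 0.00245).

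Ctss encodes cathepsin S, the protease that cuts the invariant chain, and lies on chromosome 3 (95434097 to 95463714). Its normalised counts were 133599, 120102, 125244 and 111298 in vehicle tdT+, 128824, 143034, 110869 and 137970 in BLZ945 tdT+ and 197798, 168567, 265340 and 244639 in BLZ945 tdT- libraries. The tdT- libraries were again all above the tdT+ libraries, but their order differed from that of the chains, with M1 the highest tdT- library for Ctss and the lowest for Cd74 and each chain. The log2 fold change of 0.72 ± 0.13 (SE), a 1.64-fold difference, passed the test and missed the DEG size (DESeq2 padj = 4.16e-07, edgeR padj = 0.00785). Microglia also express Ctss strongly, and the tdT- library of M1 had the highest microglia marker sum. The part of microglial RNA in the Ctss difference was not tested.

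**Figure D2:**
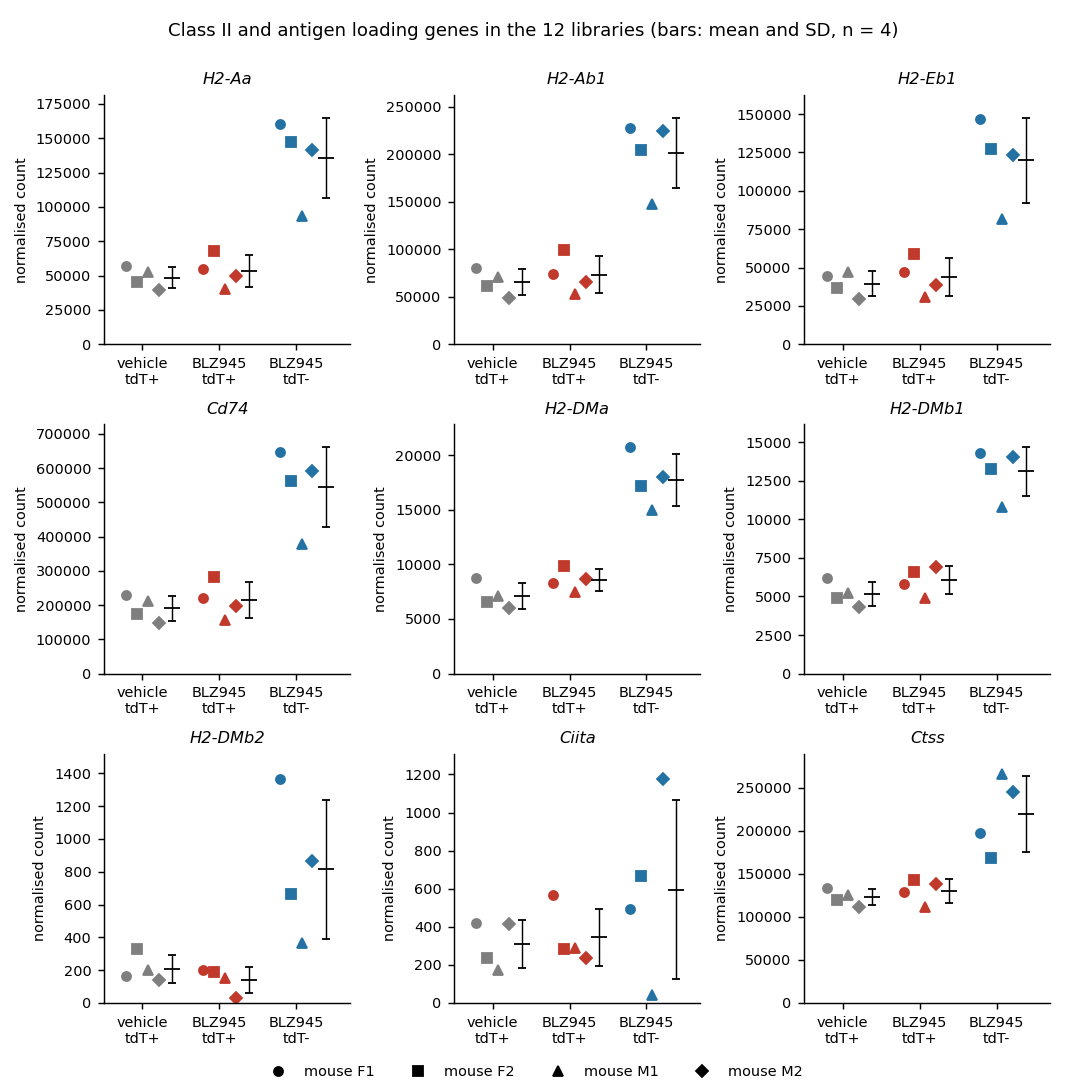
Normalised counts of the 9 genes in the 12 libraries, with 1 panel a gene, points for libraries by mouse label and bars for the mean and SD (n = 4) in each group. In 8 panels all BLZ945 tdT- points lie above the BLZ945 tdT+ points, and in the Ciita panel the groups overlap.

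The 3 H2-DM genes sit side by side on chromosome 17, H2-DMa at 34338515 to 34358075, H2-DMb2 at 34362281 to 34370529 and H2-DMb1 at 34372046 to 34379204. H2-DMa, the α chain, had 8737, 6549, 7102 and 5970 normalised counts in vehicle tdT+, 8247, 9870, 7464 and 8640 in BLZ945 tdT+ and 20767, 17132, 14942 and 17959 in BLZ945 tdT- libraries. Its log2 fold change after BLZ945 was 1.02 ± 0.14 (SE), or 2.02-fold (DESeq2 padj = 2.07e-11, edgeR padj = 0.00137). The value lay just above the DEG size. Of the exonic bases of H2-DMa, 10.4% are shared with Brd2 on the other strand and counting was unstranded, but the Brd2 log2 fold change was -0.06 (DESeq2 padj = 0.931).

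H2-DMb1, the main β chain of H2-DM, had 6170, 4879, 5218 and 4334 normalised counts in vehicle tdT+, 5839, 6597, 4889 and 6895 in BLZ945 tdT+ and 14320, 13286, 10808 and 14062 in BLZ945 tdT- libraries. The log2 fold change was 1.08 ± 0.15 (SE), or 2.12-fold (DESeq2 padj = 6.12e-12, edgeR padj = 0.00113). H2-DMb2, a near copy of H2-DMb1 whose promoter stretch is printed above beside it, was far lower, at 162, 332, 200 and 140 in vehicle tdT+, 199, 186, 154 and 27.3 in BLZ945 tdT+ and 1367, 662, 364 and 864 in BLZ945 tdT- libraries. The low value of BLZ945 tdT+ M2 widens its fold change of 2.24 ± 0.62 on the log2 scale (SE), or 4.72-fold (DESeq2 padj = 0.000479, edgeR padj = 0.0395). Reads that fit both copies were not counted, so the split between H2-DMb1 and H2-DMb2 is uncertain. H2-DMb2 made up 2.56 to 6.37% of both DMb genes' counts in vehicle tdT+, 0.394 to 3.29% in BLZ945 tdT+ and 3.26 to 8.71% in BLZ945 tdT- libraries.

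Ciita, the coactivator gene on chromosome 16 (10297923 to 10346282), was the exception. Its normalised counts were 418, 236, 174 and 416 in vehicle tdT+, 568, 284, 288 and 238 in BLZ945 tdT+ and 492, 666, 42.2 and 1178 in BLZ945 tdT- libraries. The tdT- group thus held both the lowest and the highest of the 12 values, and the groups overlapped. The shrunken log2 fold change was 0.13 ± 0.31 (SE, DESeq2 padj = 0.702, edgeR padj = 0.769), and the unshrunken value was 0.79 with a 95% interval from -0.54 to 2.11. That interval includes the changes of all 3 class II chains, so a change of their size was neither shown nor excluded at this spread. Without tdT- M1, which had the lowest Ciita value, the shrunken value was 0.72 (DESeq2 padj = 0.132). The transcript is scarce, at 62.4 normalised counts per kb in tdT- libraries on average, against 78312 for H2-Ab1.

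Per kb of exon the order of the mean levels was the same in all 3 groups: Cd74, Ctss, H2-Ab1, H2-Eb1, H2-Aa, H2-DMb1, H2-DMa, H2-DMb2 and Ciita. In BLZ945 tdT- libraries the means were 324363, 161330, 78312, 61596, 35709, 7804, 5133, 466 and 62.4 normalised counts per kb. In vehicle tdT+ libraries they were 113419, 90251, 25484, 20314, 12794, 3064, 2056, 119 and 32.6. In that order the ranges of H2-Ab1 and H2-Eb1 overlapped in all 3 groups, those of Cd74 and Ctss in both tdT+ groups, those of H2-Eb1 and H2-Aa in both BLZ945 groups and those of H2-DMb2 and Ciita in BLZ945 tdT+. All other neighbours were apart in each group. Within a library the order was the same, in 12 of 12 libraries for every neighbouring pair except H2-DMb2 and Ciita, which kept it in 11 of 12.

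**Figure D3:**
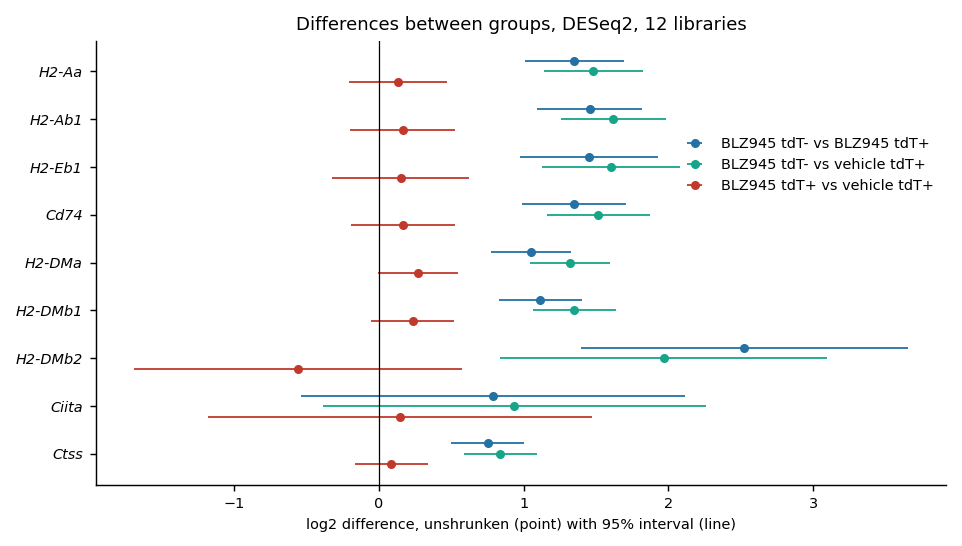
Unshrunken log2 fold changes of the 9 genes in the 3 comparisons (x axis, DESeq2, points) with 95% intervals (lines). In both comparisons of tdT- sdCAMs the intervals of 8 genes lie above 0 and that of Ciita spans 0, and between the tdT+ groups all 9 intervals span 0.

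The BLZ945 comparison can also be read within each mouse, as tdT- and tdT+ cells came from the same 4 animals. For 8 genes the tdT- library was higher in 4 of 4 mice, which already follows from the separation of their BLZ945 libraries given above. For H2-Ab1 the log2 differences (pseudocount of 1) in F1, F2, M1 and M2 were 1.61, 1.04, 1.48 and 1.77, and for H2-Eb1 they were 1.64, 1.11, 1.41 and 1.68. Mouse F2, whose tdT- library held the neutrophil transcripts, had the smallest difference of each chain and of Cd74. For these genes its tdT+ library was the highest of the BLZ945 tdT+ libraries, with H2-Ab1 at 99713. Its tdT- library was not the lowest, with H2-Ab1 at 204964 against 147597 in M1. The cause of the small difference was not tested. For Ctss the values were 0.62, 0.24, 1.26 and 0.83, and for H2-DMb2 they ranged from 1.24 to 4.94. Ciita went both ways, with -0.21, 1.23, -2.74 and 2.30, and was higher in 2 of 4 mice.

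Whether the genes moved by equal amounts was asked with ratios to H2-Ab1 within each library, which need no size factor. The mean ratio per base of Cd74 to H2-Ab1 was 4.46 in vehicle tdT+, 4.48 in BLZ945 tdT+ and 4.12 in BLZ945 tdT- libraries, and that of H2-Eb1 was 0.799, 0.788 and 0.782. Between the BLZ945 populations the log2 difference in ratio was -0.12 for Cd74 (exact permutation p = 0.0571) and -0.01 for H2-Eb1 (exact permutation p = 0.914). The ratio of Ctss was 3.62, 3.47 and 2.17, that of H2-DMa 0.0814, 0.0896 and 0.0663 and that of H2-DMb1 0.121, 0.13 and 0.101. Ctss, H2-DMa, H2-DMb1 and Cd74 each had a lower ratio in the tdT- library of all 4 BLZ945 mice, which puts them at 0.125, the smallest two-sided p that the exact sign-flip permutation test over 4 mice can give. In the two-sided exact permutation test over unpaired libraries, whose smallest possible p is 0.0286 with 4 against 4 libraries, 0 of 21 ratio tests passed after Benjamini-Hochberg adjustment and 1 had an unadjusted p under 0.05. For any to pass, 12 of the 21 would have to sit at the smallest p, so these tests say little about equal change. The test with an unadjusted p under 0.05 was that of H2-DMb1 in BLZ945 tdT- against vehicle tdT+, with a log2 difference in ratio of -0.27 (exact permutation p = 0.0286, adjusted 0.171). Between the BLZ945 populations Ctss differed in ratio by -0.74 (exact permutation p = 0.0857) and H2-DMa by -0.43 (exact permutation p = 0.0571).

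**Figure D4:**
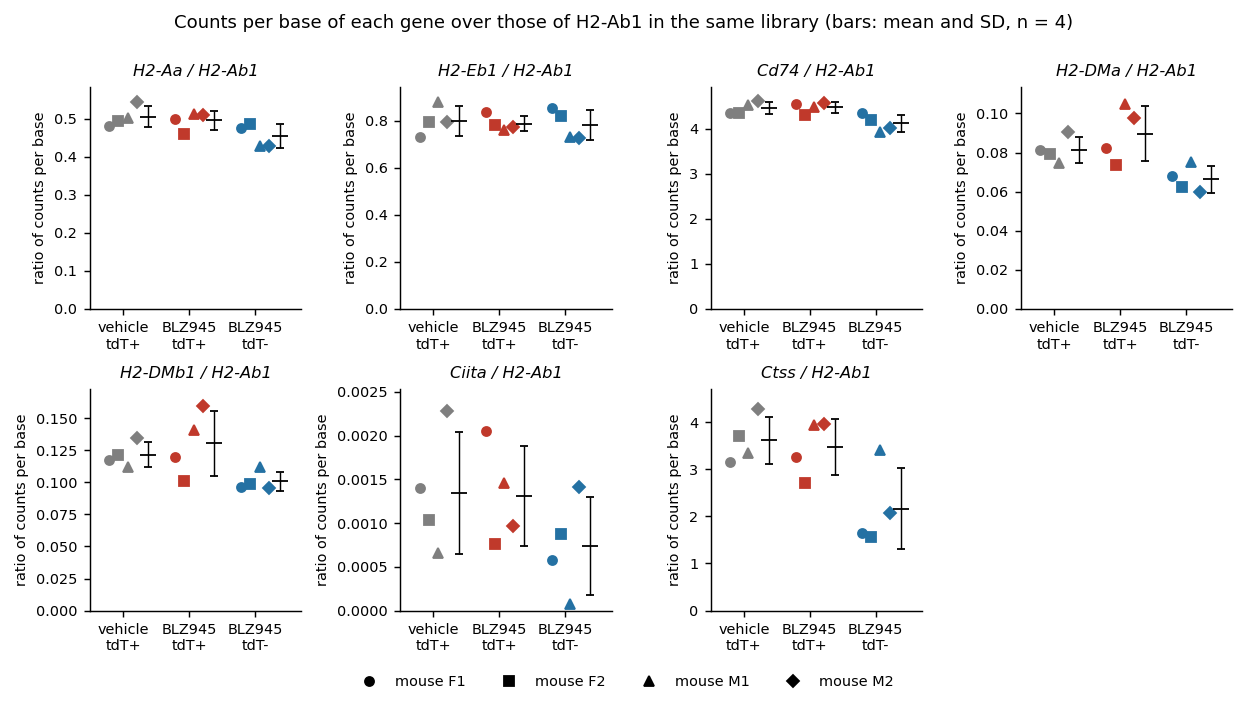
Counts per base of 7 genes over those of H2-Ab1 in the same library, with libraries as points by mouse label and bars for the mean and SD (n = 4) in each group. The mean ratio of H2-Eb1 is 0.799, 0.788 and 0.782 in the 3 groups, and the ratio of Ctss in the tdT- library of M1 lies among the tdT+ values.

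The comparison of the tdT+ groups addresses whether labelled sdCAMs that went through depletion differ from labelled sdCAMs of vehicle mice. Of the 9 genes, 0 passed in DESeq2 and 0 in edgeR, and 0 had an unadjusted DESeq2 p under 0.05. All 9 overlapped between the groups. Of the 13633 genes with a padj, 0.484% passed as higher and 0.477% as lower. Of all genes tested, 3.58% had all BLZ945 tdT+ libraries above all vehicle libraries. The unshrunken log2 fold changes bound the differences: H2-Ab1 was 0.16 (95% interval -0.20 to 0.53), Cd74 was 0.17 (-0.19 to 0.52) and Ctss was 0.09 (-0.16 to 0.34). These intervals lie below the values of the same genes between the BLZ945 populations. The interval of Ciita, -1.18 to 1.47, and that of H2-DMb2, -1.69 to 0.57, were wide.

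BLZ945 tdT- sdCAMs were also set against vehicle tdT+ sdCAMs. This comparison shares its libraries with the others, so its counts are no further support. Again 8 of the 9 genes passed as higher and 7 were DEGs. The background was 3.29% and 1.49% of the 13633 genes with a padj, with 3.51% lower. In all libraries 8 of the 9 genes were apart (background 4.82% of all genes tested). The log2 fold changes were 1.44 for H2-Aa, 1.62 for H2-Ab1, 1.53 for H2-Eb1, 1.48 for Cd74, 1.29 for H2-DMa, 1.32 for H2-DMb1 and 0.81 for Ctss, with the largest DESeq2 padj among them at 7.99e-09. H2-DMb2 was at 1.58 ± 0.65 (SE, DESeq2 padj = 0.0135), a call not made by edgeR (padj = 0.105). Ciita was at 0.18 (DESeq2 padj = 0.579), and at 0.93 without tdT- M1 (DESeq2 padj = 0.0734).

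No group difference of these genes was found to depend on the letter F or M of the mouse label, in a test with few mice a letter. A difference between F and M mice within a group was not tested. In edgeR's test of the group by letter interaction, 0 of 9 genes and 0 of all genes passed in each of the 3 comparisons, and DESeq2 called 0 of the 9. Unadjusted p-values under 0.05 numbered 984, 449 and 1103 of 13724 genes. Ctss had the smallest edgeR value of the 9, and its tdT- minus tdT+ difference after BLZ945 was 0.60 larger in the M mice on the log2 scale, which did not pass (edgeR quasi-likelihood padj = 0.543, DESeq2 padj = 0.0691).

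Of the other class II locus genes, 2 of 4 could be tested, and both passed as higher in tdT- than in tdT+ sdCAMs after BLZ945. H2-Ob, the H2-O β chain with the X-Y pair printed above, had 147, 303, 234 and 202 normalised counts in BLZ945 tdT+ and 560, 1061, 1468 and 1052 in BLZ945 tdT- libraries. Its log2 fold change was 2.08 ± 0.42 (SE, DESeq2 padj = 2.16e-06, edgeR padj = 0.00672). H2-Oa, the α chain, had 71.8, 75.6, 174 and 61.9 against 425, 607, 348 and 457, a log2 fold change of 1.85 ± 0.71 (SE, DESeq2 padj = 0.00846), which edgeR did not call (padj = 0.104) and which was 1.26 without tdT- F2 and M1 (DESeq2 padj = 0.095). In DESeq2 the genes of both H2-O chains thus passed in the same direction as the H2-DM genes whose product they restrain.

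Among 12 genes of endosomal proteases, their inhibitors and helpers, 3 passed as higher and 1 as lower in the same comparison (median log2 fold change 0.21, against 0.00104 over all genes). The part of microglial RNA in the changes of this list was not tested. Cst3, the secreted inhibitor cystatin C, was higher by 1.08 on the log2 scale (DESeq2 padj = 1.09e-09), and with mouse as a block it was 0.69 (DESeq2 padj = 0.108). Ctsd, the aspartic protease cathepsin D, was 0.42 higher (DESeq2 padj = 0.0311, edgeR padj = 0.185). Ctsc, cathepsin C, fell by 0.54 (DESeq2 padj = 3.39e-06). Napsa, an aspartic protease gene, was at 0, 18.4, 0 and 0 normalised counts in BLZ945 tdT+ and 712, 1746, 647 and 527 in BLZ945 tdT- libraries (DESeq2 padj = 0.00124, edgeR padj = 0.0247), a call lost without tdT- F2 and M1 (DESeq2 padj = 0.0928). Vehicle tdT+ libraries held 107, 176, 142 and 0 of it, so tdT+ libraries of both treatments held counts of it. Without tdT- F2, 9 genes of this list passed in either direction, against 4 with all libraries and 2 with mouse as a block.

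Upstream of class II, of 8 factors that act at class II promoters (the RFX and NF-Y subunits, Creb1 and Zxdc), 0 passed in DESeq2 and in edgeR, 0 had an unadjusted p under 0.05, and the largest shrunken change was 0.26 for Rfxap (DESeq2 padj = 0.527). Unshrunken, Rfx5 was at 0.93 with a 95% interval from -1.02 to 2.88, so a change of that size was neither shown nor excluded at this spread. Of 10 genes that induce or restrain Ciita in macrophages, 2 passed as higher: Irf8, a myeloid transcription factor, by 0.51 (DESeq2 padj = 0.00624, edgeR padj = 0.0769), and Spi1, which encodes PU.1, by 0.30 (DESeq2 padj = 0.0143, edgeR padj = 0.14). The number passed was 0 to 3 under the alternatives, among them 0 in edgeR, 0 with mouse as a block and 0 without tdT+ M1, and 1 without tdT+ F1, tdT- M1 or tdT- M2.

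Genes of class II turnover, costimulation and MHC class I did not pass in the BLZ945 comparison. Of 5 turnover genes 0 passed in DESeq2 and 0 in edgeR (2 at an unadjusted p under 0.05), with Cd83, which protects surface class II, at 0.49 (DESeq2 padj = 0.071). Of 8 costimulatory genes tested 0 passed in either tool (1 unadjusted), with the adhesion molecule Icam1 at 0.54 (DESeq2 padj = 0.069). Of 9 class I genes 0 passed in either tool (3 unadjusted). The largest changes were those of Tap1 at 0.33 (DESeq2 padj = 0.161) and Psmb8 at 0.33 (DESeq2 padj = 0.0846). For Psmb8 all tdT- libraries lay above all BLZ945 tdT+ libraries. B2m, the class I light chain, was at 0.20 (DESeq2 padj = 0.125). Under the alternatives up to 1 turnover, 1 costimulatory and 2 class I genes passed, each maximum also reached without tdT- F2. Against vehicle tdT+, Il10ra, a subunit of the interleukin-10 receptor, was higher by 0.79 in tdT- (DESeq2 padj = 5.81e-08) and by 0.53 in BLZ945 tdT+ sdCAMs (DESeq2 padj = 0.00245, edgeR padj = 0.229). Icosl, the ligand of the costimulator ICOS, was higher by 1.04 (DESeq2 padj = 3.72e-05) and 0.69 (DESeq2 padj = 0.0306, edgeR padj = 0.278). In tdT- against vehicle tdT+, the turnover gene Marchf8 passed as lower at -0.64 (DESeq2 padj = 0.0403, edgeR padj = 0.0959). Of the lists above, Ifngr1 passed there as higher at 0.40 (DESeq2 padj = 0.000842, edgeR padj = 0.0563). So did Ctsz at 0.48 (DESeq2 padj = 0.00363, edgeR padj = 0.0807) and Ctsh at 0.28 (DESeq2 padj = 0.0372, edgeR padj = 0.208).

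The 6 class II genes of chromosome 17 share their surroundings with genes of other functions. Within 200 kb of them, 20 tested genes are not class II genes. Of these 2 passed as higher after BLZ945 in tdT- against tdT+ sdCAMs, the chaperone subunit gene Pfdn6 at 0.72 (DESeq2 padj = 0.0045, edgeR padj = 0.0769) and the ribosomal gene Rps18 at 0.40 (DESeq2 padj = 0.045, edgeR padj = 0.144), and 0 passed as lower. Their median log2 fold change was 0.036, and 0 to 3 passed under the alternatives.

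**Figure D5:**
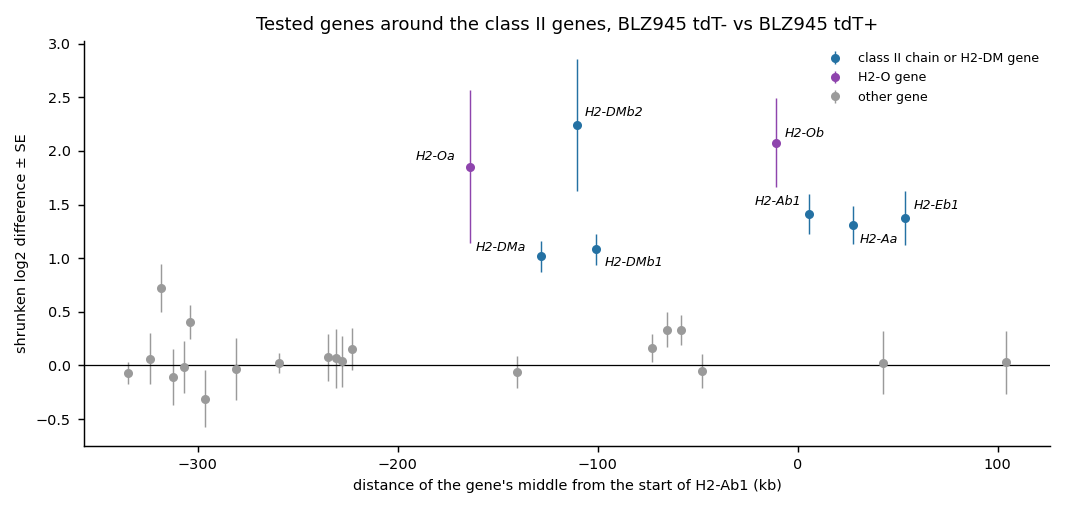
Shrunken log2 fold change (BLZ945 tdT- against BLZ945 tdT+, DESeq2, bars SE) of tested genes near the class II genes of chromosome 17, against the distance of the gene's middle from the start of H2-Ab1 (kb). The 6 class II genes and H2-Oa and H2-Ob lie at 1.02 or more, and the 20 other genes have a median of 0.036.

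Genes whose level followed the chains and Cd74 most closely were ranked by Pearson r of log2 normalised counts with the mean of the 4 genes, over 9591 genes with a mean of at least 100. Over the 12 libraries, Fxyd5, a regulator of the sodium pump, had r = 0.974, Mcub, a subunit of the mitochondrial calcium channel, 0.970, Slamf9 0.949, Bcl2a1a 0.946, Lat2 0.938, Tpm4 0.931, Lgals3 0.925, Gapt 0.925, Arhgef40 0.923 and 1600014C10Rik 0.920. H2-DMa and H2-DMb1 had 0.977 and 0.976. The points share the 3 groups, so these values mostly follow the difference between groups. After the group means were removed Mcub came first with 0.941, followed by Slc37a4, Zbtb7b, Trpm2, Abr, Axl, Mast3, Ctnnbl1, Zfp362 and Yeats4 with 0.934 to 0.855. H2-DMa then had 0.885 and H2-DMb1 0.839, Ciita 0.487 and Ctss 0.0765. Slc37a4 encodes the glucose-6-phosphate transporter and Axl a receptor for phosphatidylserine-binding ligands. The 12 points include mice that gave 2 libraries each, and these values carry no test.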

How the data were processed

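The deposited table holds raw counts per gene, which the authors made by aligning SMART-Seq mRNA reads with STAR 2.7.11a and counting reads on the exons of a filtered GENCODE annotation (GRCm39, with a tdTomato entry) with featureCounts 2.0.6, unstranded and without multi-mapping reads. bcl2fastq 2.20 and DESeq2 1.46.0 also stand in the submitters' processing notes. The reads carry no molecular identifiers, so any limit from counting covers counting error only. All sample columns were used (0 left out). 1 vehicle column carries the library number of mouse M2 and the letter and number of M1, and it was assigned by library number.

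A gene was left out if 75% or more of the libraries (9 of 12) held fewer than 10 counts. The 12 libraries were fitted with group as the only term in DESeq2 1.42.0 (R 4.3.3, median-of-ratios size factors, Wald test, two-sided, Benjamini-Hochberg padj over all genes tested), with log2 fold changes shrunken by apeglm 1.24.0. Passed means padj of at most 0.05, and a DEG moved, besides, by 1 or more on the shrunken log2 scale. DESeq2 gave a padj to fewer genes than were tested, and background shares passed are over those with a padj. Normalised counts are counts over size factors, in which 3 counts equal 2.60 to 3.16. edgeR 4.0.16 gave the second test and the interaction. Ratios were tested over all 70 assignments of 8 libraries (scipy 1.17.1, Python 3.11.15). Count models were tested on simulated data first.

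Each BLZ945 mouse gave 1 tdT+ and 1 tdT- library, so these pair. Their deviations from the group means correlated by 0.000271, -0.00463, -0.00144 and 0.0352 in F1, F2, M1 and M2. Replicates are separate mice, and the 18 pairs of libraries within groups differed beyond sampling noise (smallest chi-square per degree of freedom 45.6).

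1 marker each of the microglia and B cell lists is not reported here, and the sums are without them. The genes, lists and markers were chosen with earlier results of these data known. All 9 genes are given in full. Of each list the genes that passed and otherwise those with the largest changes are named, but the cell type markers only in part. Of the neighbouring genes those that passed are named, and of all other genes the 10 with the highest correlation.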

Additional observations from a re-analysis of the deposited data

Results flagged for a closer look

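In BLZ945 tdT+ sdCAMs the Ciita value of mouse F1, 568 normalised counts, stood apart from the other 3 libraries of its group (284, 288 and 238), its gap to the nearest being 0.848 of the group's range, above Dixon's 95% critical value. Of the 27 sets of 4 values examined (9 genes in 3 groups), 1 stood apart in this way, where chance gives about 1.35.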

How the results depend on the processing

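In the comparison of BLZ945 tdT- with BLZ945 tdT+ sdCAMs, 8 genes passed under every one of the 23 alternatives except with both DMb genes summed, which leaves 1 gene fewer and gave 7. The number of DEGs was 5 to 7, the lowest without tdT+ M1, and H2-DMa ranged from 0.93 to 1.14 on the log2 scale around the DEG size. Of the 9 genes 0 passed between the tdT+ groups under any alternative, and 7 or 8 passed in BLZ945 tdT- against vehicle tdT+. There H2-DMb2 did not pass in edgeR (1.93, padj = 0.105), without vehicle F1 (1.28), without vehicle M2 (1.21) or without tdT- F1 (0.96). The cause was not tested. With the mouse as a replicate block, 8 genes passed and 7 were DEGs in the comparison within mice, and the block changed no call of the 9 genes. With no mismatch allowed, the X-Y pair was found in 0 promoters, since fewer letters may differ. Without tdT- F2 and M1, a setting chosen after seeing the data, the 9 genes in the order H2-Aa, H2-Ab1, H2-Eb1, Cd74, H2-DMa, H2-DMb1, H2-DMb2, Ciita and Ctss were at 1.46, 1.54, 1.55, 1.45, 1.14, 1.18, 2.64, 0.67 and 0.74. Over all genes, 875 passed between the BLZ945 populations in DESeq2 and 377 in edgeR, 928 and 446 in tdT- against vehicle tdT+, and 131 and 9 between the tdT+ groups, where the count was 257 without a filter on low counts, 325 with those 2 groups alone, 389 with the block on the label, 213 without vehicle F2, 226 without tdT- F2 and 246 without tdT- F2 and M1. The sign-flip test of the ratios over 4 mice cannot go below p = 0.125 (exact permutation). The spread between 4 libraries a group limits what can be said of Ciita.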
